A study of Sus scrofa with 4 samples.

Results

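Type I interferon-stimulated genes are the genes that cells switch on when they sense a virus or receive type I interferon. The 39 genes considered here were taken by name from a list of them. That list, like the other gene lists below, was chosen with earlier results of these data known. Shares of listed genes set beside those of all mRNAs are therefore descriptions, not tests. A protein-coding row under the listed name was found for 36 of the 39, among 16192 protein-coding genes in all, and IFIT5, SAMD9 and XAF1 had no row under those names. Of the 36, 29 were reliably expressed, which in the study's definition needs FPKM of 1 or more in 3 or 4 libraries, among 9191 reliably expressed mRNAs. The expression unit throughout is FPKM, a number of fragments scaled by transcript length and by the library total, so levels of different genes can be set side by side per length. Where 4 values of a gene are given without stages, they stand in the order D0, D2, D4 and D8.

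The genes were measured during the adipogenic differentiation in culture of preadipocytes, the precursors of fat cells, from the subcutaneous fat of 5-day-old male Chinese Erhualian piglets. D0 was the confluent culture before induction. D2 followed 2 days in growth medium with dexamethasone, 3-isobutyl-1-methylxanthine and insulin, D4 followed 2 more days with insulin, and D8 followed a return to growth medium. RNA of 3 piglets was pooled in equal amounts into 1 library per stage. Without replicates a difference between stages cannot be told apart from one between libraries, and stages were not tested. A difference of at least 2-fold, the fold used in the study, is therefore a description of these libraries. Intervals in parentheses are 95% intervals of counting error only, exact for ratios, from fragment numbers recovered from the FPKM values.

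By way of background, type I interferons bind the receptor IFNAR1 and IFNAR2, the kinases JAK1 and TYK2 are activated, and a transcription factor complex, ISGF3, forms with STAT2 and IRF9 among its subunits. ISGF3 binds a short element in the promoters of interferon-stimulated genes. The products sense viral RNA, block translation and replication, tag proteins with the ubiquitin-like ISG15, or feed back on the pathway itself, and many cells, stromal cells of fat among them, keep a low level of them without infection.

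Counted fragments per library were 75387428 (D0), 54987801 (D2), 74358922 (D4) and 54128151 (D8), and 3 fragments, the floor used for a gene at 0, correspond to FPKM between 0.0398 and 0.0554 for a transcript of 1000 bases. The labelled cell types were checked against marker genes. All 6 preadipocyte and stromal markers were reliably expressed (summed FPKM between 638.9 and 986.2), and the 5 adipocyte markers summed to 84.2 (D0), 267.3 (D2), 1252 (D4) and 1861 (D8). FABP4 held most of that sum, with 77.5, 200.7, 853.3 and 1557. CIDEC was also highest at D8 (54.6). PLIN1 and ADIPOQ were highest at D4 (214.7 and 178.7) and lower at D8 (90.3 and 158.2), and LEP was between 0.0269 and 0.314. The 7 macrophage and monocyte markers summed to between 4.85 and 9.62, with CD14 the highest of them in every library, while PTPRC, the marker shared by all white blood cells, stayed at or under 0.0712, and CSF1R was at 0 at D8. Of the T and NK cell markers 1 of 4 had a row and reached at most 0.0767, the dendritic cell marker FLT3 reached at most 0.0189, and PECAM1 held nearly all of the endothelial sum of 1.14 to 2.58. In such bulk libraries, fewer cells of a type and less RNA per cell cannot be told apart. Single macrophage markers followed other courses than CD14 at low levels. CD163 had FPKM of 0.270, 1.42, 1.01 and 1.38 (4.98-fold at D8 against D0), AIF1 had 0.221, 0.273, 0.225 and 1.05 (4.57-fold, on 10 and 34 fragments), and CD68 had 0.0108, 0.223, 0.208 and 0.151 from 1 to 19 fragments. The part of other cell types in the members' values was not tested.

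As a set, the interferon-stimulated genes were at their lowest level before induction, and their summed level was highest in the D8 library, whereas the median level of the 29 reliably expressed members was highest at D4 (FPKM of 5.27, 6.28, 8.61 and 6.52). Their summed FPKM over all 36 was 308.9 (D0), 602.1 (D2), 689.5 (D4) and 972.6 (D8), which is 1.95, 2.23 and 3.15 times the D0 level. A pair of genes held much of the sum, since IFI6 made up between 38.3% and 51.2% of it and ISG15 between 9.60% and 15.9%. Without them the sum was 160.9, 258.6, 309.0 and 319.6 in stage order, or 1.61, 1.92 and 1.99 times D0, so the remaining 34 genes were nearly level between D4 and D8. Counted as fragments, the set took 0.0651% of the D0 library (95% Wilson binomial interval 0.0645 to 0.0657), 0.115% at D2 (0.114 to 0.116), 0.136% at D4 (0.135 to 0.137) and 0.141% at D8 (0.140 to 0.142).

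The difference between the libraries was spread over many members. In D2 against D0 the median log2 ratio over the 29 reliably expressed members was 0.61, against -0.03 over all reliably expressed mRNAs. At least 2-fold higher at D2 were 8 members (27.6%), where 6.67% of all mRNAs were, and 1 member was at least 2-fold lower, where 10.1% of all mRNAs were. Between D2 and D4, with the induction cocktail replaced by insulin, the differences were small, with a median of 0.30 against 0.09 for all mRNAs, 25 of 29 members higher at D4 (62.5% of all mRNAs were), and no reliably expressed member 2-fold different in either direction, where 4.24% of all mRNAs were 2-fold higher and 0.838% lower. Over the 33 members with FPKM of at least 1 in any library, 4 were 2-fold higher, namely RSAD2, CMPK2, PARP14 and MX2. These 4 passed that wider filter only through their values at D4 or D8. The share of all mRNAs under the same filter is not given here, so the count is not a result about the members.

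Between D4 and D8 the median of the members was 0.24 while that of all mRNAs was -0.21. Here 3 members were at least 2-fold higher at D8 (10.3%, against 4.43% of all mRNAs) and 1 was at least 2-fold lower (against 10.1%). These 2 libraries differed in scale: a median-ratio scaling over all mRNAs raised every D8 to D4 log2 ratio by 0.21, which gave a median of 0.45 with 5 members 2-fold higher and 0 lower, whereas scaling to the protein-coding sum left 1 member 2-fold higher. Each scaling shifted all mRNAs by the same amount as the members. The shares of all mRNAs past 2-fold under them are not given here, so these counts show only how the calls depend on scale.

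Set against the starting culture, 16 of 29 members (55.2%) were at least 2-fold higher at D4, where 10.4% of all mRNAs were, and 13 (44.8%) were at D8, where 3.60% were. No reliably expressed member was at least 2-fold lower than D0 at D4 or D8, where 8.81% and 3.68% of all mRNAs were lower by that much. The median log2 ratio was 1.10 at D4 and 0.67 at D8, beside 0.06 and -0.18 for all mRNAs. The comparisons share libraries and do not support each other. The expression filter also matters, because IFIT1, IFIT2 and DTX3L were under 1 at D0 and passed through their later values, and because over the 33 members with FPKM of at least 1 in any library the D8 median was 1.09. The median of all mRNAs under that wider filter is not given here. The plot of member ratios against all mRNAs shows how far the members sat from the bulk of the transcriptome in each comparison.

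**Figure D1:**
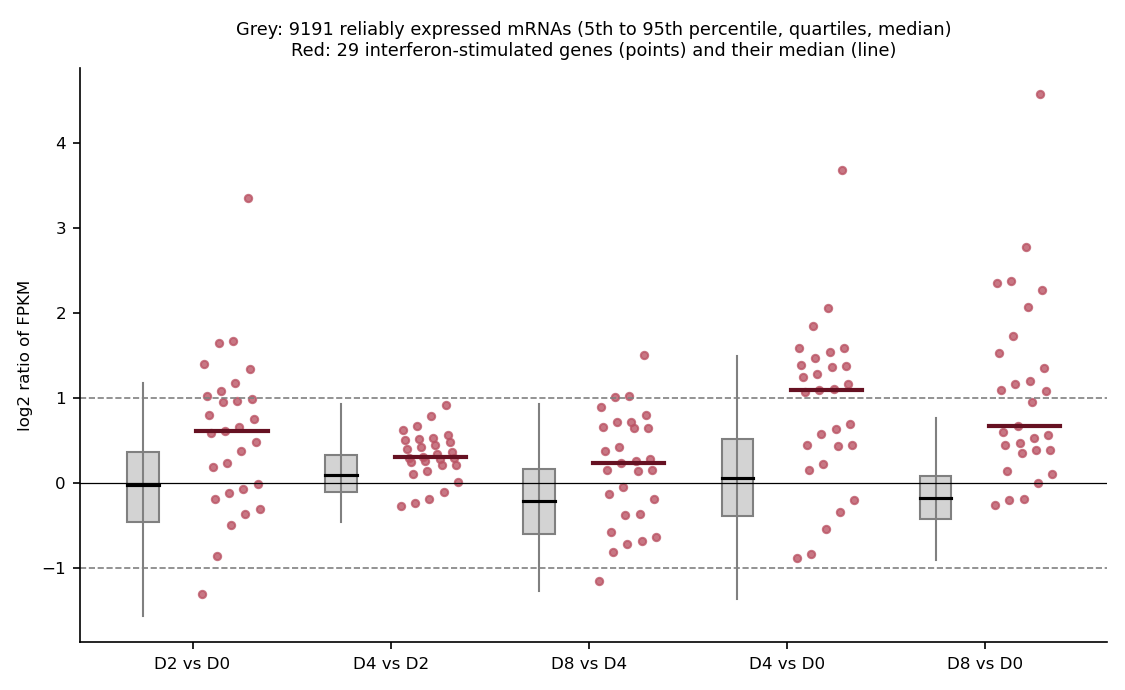
Log2 ratio of FPKM (vertical axis) in each of the 5 comparisons between libraries (horizontal axis), for 9191 reliably expressed mRNAs (grey boxes with quartiles and median, whiskers from the 5th to the 95th percentile) and for 29 reliably expressed interferon-stimulated genes (red points, red line at their median), with dashed lines at 2-fold. The red median lies above the grey median in every comparison, most in D4 vs D0 (1.10 against 0.06).

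The members followed different courses. Of the 29, 16 (55.2%) had their highest FPKM in the D8 library, against 9.51% of all mRNAs, 9 peaked at D4 (37.3% of all mRNAs), 1 at D2 (16.7%) and 3 at D0 (36.5%). Under the median-ratio scaling, chosen for this count after the data were seen, 18 members and 19.1% of all mRNAs were highest at D8. IFIT1, IFIT2, IFIT3, MX1, BST2, USP18, DTX3L, IFI6 and IFI44 were higher at each step from D0 to D8, 9 of 29 (31.0%), where 1.84% of all mRNAs were. In 19 members (65.5%) the D0 library was the lowest, against 22.8% of all mRNAs. At least 2-fold above D0 in all of D2, D4 and D8 were 7 members, IFIT1, IFIT3, MX1, BST2, ISG15, IFI6 and IFI44 (24.1%, where 4.28% of all mRNAs were 2-fold different from D0 at all of these stages). A difference of 2-fold or more in at least 1 comparison was seen in 19 of 29 (65.5%), against 29.9% of all mRNAs. The remaining members were DDX58, IFIH1, IRF1, IRF9, HERC5, TRIM21, PARP9, IFI35, PSMB9 and TAP1, 10 genes under 2-fold in all 5 comparisons.

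**Figure D2:**
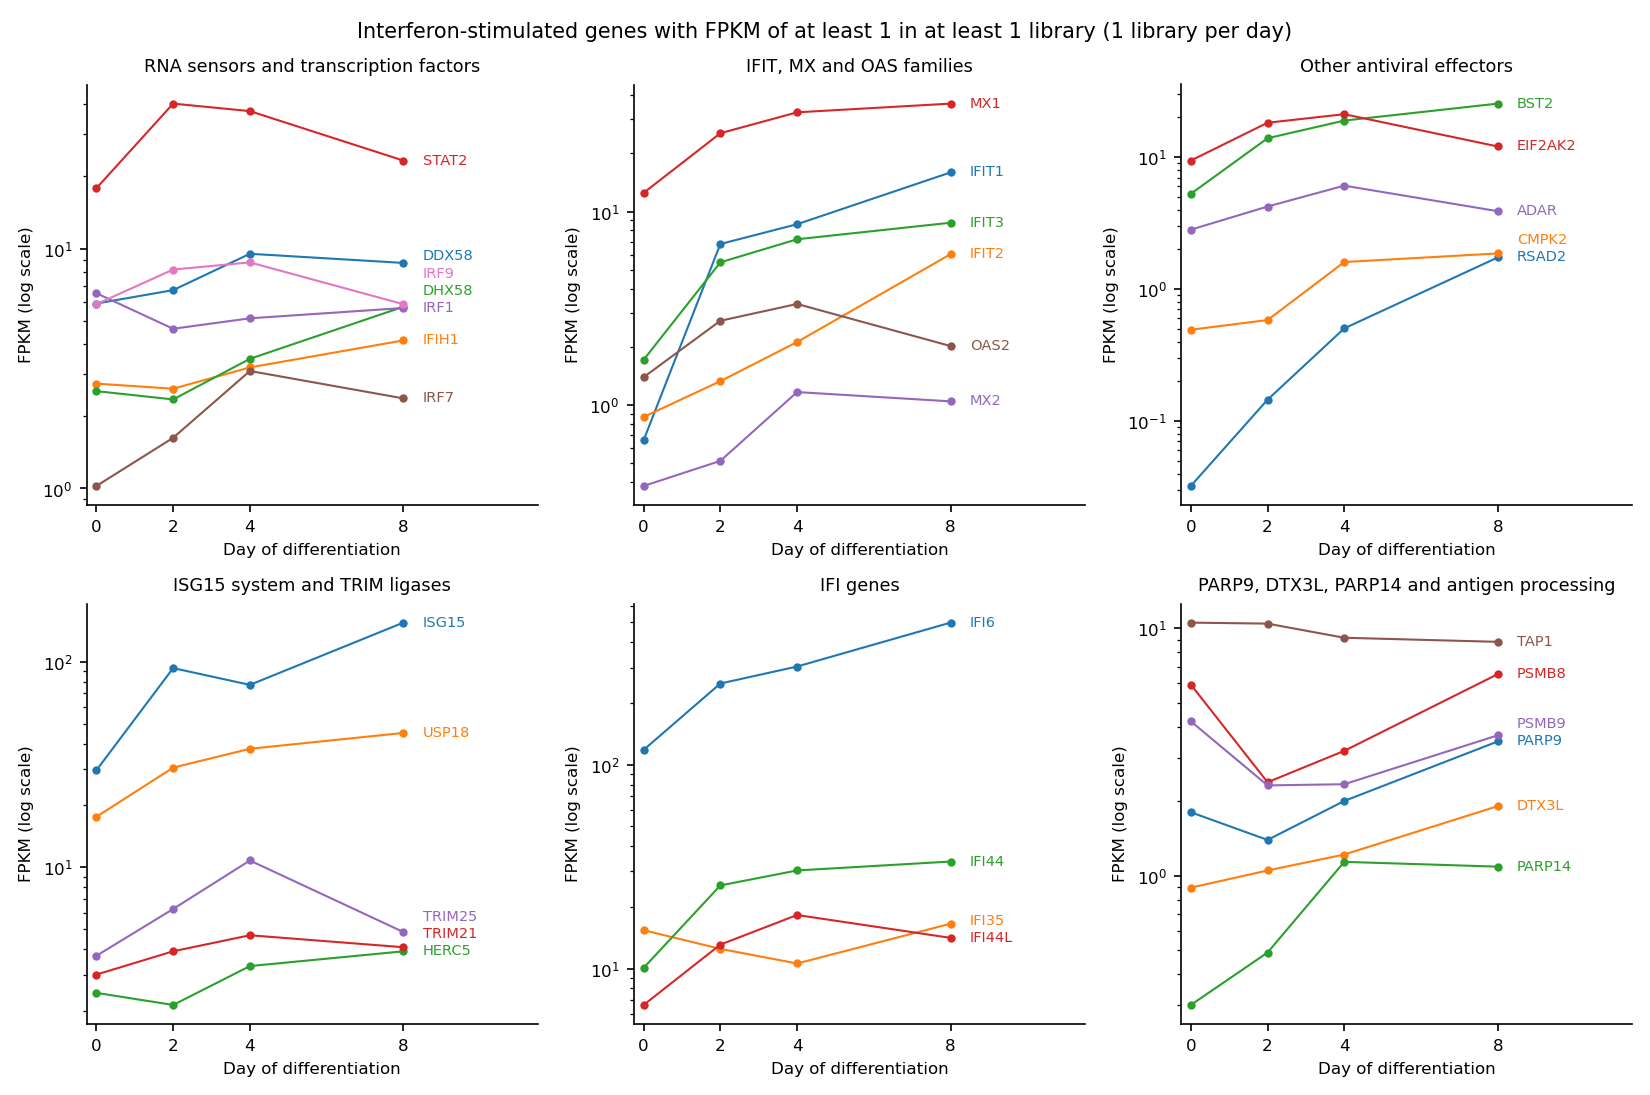
FPKM on a log scale (vertical axes) by day of differentiation (horizontal axes, 1 library per day) for the 33 interferon-stimulated genes with FPKM of at least 1 in at least 1 library, grouped by role in 6 panels. IFI6 is the most abundant (118.3 at D0 and 498.3 at D8), IFIT1 and RSAD2 show the steepest lines, and STAT2, EIF2AK2, ADAR, TRIM25 and OAS2 are lower at D8 than at D4.

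The sensors of foreign RNA were present in every library, DDX58 at the highest level. DDX58, which encodes the RNA sensor RIG-I, had FPKM of 5.90 (D0), 6.72 (D2), 9.52 (D4) and 8.72 (D8). IFIH1, encoding the long double-stranded RNA sensor MDA5, had 2.74, 2.61, 3.20 and 4.14 in the same order. DHX58, encoding LGP2, which modulates the other sensors, had 2.55, 2.35, 3.47 and 5.72. Both MDA5 and LGP2 transcripts were highest at D8, and DHX58 was the sensor past 2-fold, with a log2 ratio of D8 to D0 of 1.17 (1.01 to 1.33).

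The transcription factors were highest in the middle of the course or at its start. STAT2, the ISGF3 subunit that carries the activation domain, had FPKM of 17.9 (D0), 40.2 (D2), 37.4 (D4) and 23.3 (D8). Its log2 ratio to D0 was 1.17 (1.13 to 1.22) at D2 and 1.07 (1.02 to 1.11) at D4. The D8 library thus stood nearer to D0 than to D2 for this gene. IRF9, the DNA-binding subunit of ISGF3, had 5.87, 8.18, 8.76 and 5.87, and its D8 to D0 log2 ratio of 0.00 (-0.18 to 0.17) leaves no difference detectable at this depth.

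IRF7, which amplifies interferon production and is itself interferon-induced, had 1.02, 1.63, 3.09 and 2.37. Its log2 ratio to D0 was 1.58 (1.33 to 1.86) at D4 and 1.21 (0.92 to 1.51) at D8, so the lower bound at D8 was under 2-fold. IRF1, a factor that answers interferon-gamma strongly, was highest at D0, with 6.52, 4.63, 5.12 and 5.66. It was under 2-fold in every comparison and, with PSMB9 and TAP1, 1 of the 3 members highest before induction, although TAP1 was highest at D2 under both scalings.

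The IFIT genes, whose products bind viral RNA and block its translation, were each at least 2-fold higher at D4 and at D8 than at D0. IFIT1 had FPKM of 0.658 (D0), 6.80 (D2), 8.61 (D4) and 15.9 (D8), from 104, 784, 1342 and 1810 fragments. This is 10.2-fold, 12.9-fold and 23.9-fold the D0 level, and the D8 to D0 log2 ratio was 4.58 (4.31 to 4.90). On the log2 scale most of this distance was already there at D2 (3.35). IFIT3 had 1.71, 5.47, 7.20 and 8.76, with log2 ratios to D0 of 1.67 (1.47 to 1.88), 2.06 (1.89 to 2.26) and 2.35 (2.17 to 2.55).

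IFIT2 ran later than its neighbours. Its FPKM was 0.867 (D0), 1.33 (D2), 2.12 (D4) and 6.02 (D8). At D2 it was 1.53-fold D0, at D4 its log2 ratio to D0 was 1.28 (1.06 to 1.52), and between D4 and D8 alone it was 2.84-fold higher. The D8 to D0 log2 ratio was 2.78 (2.59 to 3.01). The order of levels at D8 was IFIT1, IFIT3 and IFIT2, whereas at D0 it was IFIT3, IFIT2 and IFIT1.

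All 3 IFIT genes lie on the plus strand of chromosome 14, IFIT2 at chr14:101193421-101204292, IFIT3 at chr14:101214730-101225169 and IFIT1 at chr14:101237403-101249486 (build Sscrofa11.1, as the deposited positions and the RefSeq annotation give them). The annotated span of LIPA, which encodes lysosomal acid lipase, covers all of them on the other strand. LIPA had FPKM of 4.38, 8.57, 19.1 and 6.92, highest at D4, while none of the IFIT genes was. The library kit keeps strand, but whether the counting used it is not given in the sources used here, and without it reads from both strands cannot be told apart. Likewise DDX58 (chr10:33891720-33976151) overlaps ACO1, an iron-regulated aconitase gene, over 38319 bases on the other strand, and ACO1 had 12.6, 19.7, 46.8 and 14.5. IRF9 (chr7:75133800-75139641) overlaps an assembled antisense lncRNA, MSTRG.73451, that had 1.41, 0.970, 3.86 and 1.48. DDX58, IRF9 and both of these opposite-strand genes were highest in the D4 library as deposited. DDX58 was highest at D8 under the median-ratio scaling, and the part of the overlap in these courses was not tested. The same limit holds for IRF1, which lies inside SLC22A5 (FPKM of at most 1.45). CXCL10 lies inside ART3 (0.221 at D8 and 0 in the other libraries). OAS2 overlaps an antisense lncRNA, MSTRG.122069, over 8372 bases (0.223 at D4 and 0 otherwise). ADAR and ISG15 overlap such genes over 317 and 69 bases.

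**Figure D3:**
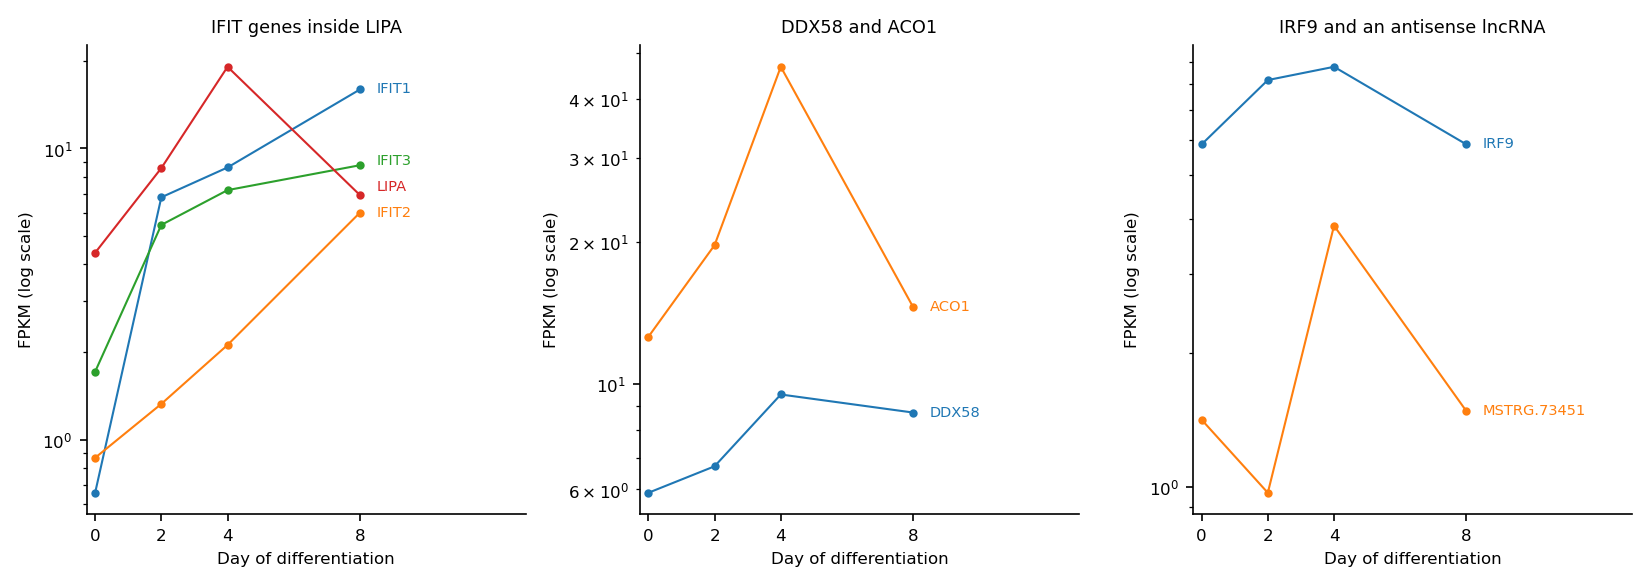
FPKM on a log scale (vertical axes) by day of differentiation (horizontal axes, 1 library per day) for members and the genes that overlap them on the opposite strand, with the IFIT genes and LIPA, DDX58 and ACO1, and IRF9 and an antisense lncRNA in separate panels. LIPA peaks at D4 (19.1) while IFIT1, IFIT2 and IFIT3 are highest at D8.

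Among the dynamin-like GTPases, which trap viral nucleocapsids, MX1 had FPKM of 12.5 (D0), 25.4 (D2), 32.6 (D4) and 36.2 (D8). Its log2 ratio to D0 was 1.02 (0.95 to 1.10), 1.38 (1.32 to 1.45) and 1.53 (1.46 to 1.60), which puts the D2 value at the 2-fold line within counting error. MX2, its neighbour 21436 bases away on chromosome 13, was not reliably expressed, with 0.381, 0.514, 1.17 and 1.04. The MX2 log2 ratio to D0 was 1.59 (1.18 to 2.06) at D4 and 1.43 (0.99 to 1.93) at D8, and that of D4 to D2 was 1.17 (0.75 to 1.64).

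The OAS genes, whose enzymes make the messenger that activates RNase L, were low throughout. OAS2 had FPKM of 1.39, 2.73, 3.33 and 2.02, and its D4 to D0 log2 ratio was 1.25 (1.09 to 1.43). OAS1, which lies 3385 bases from it, ranged from 0.0166 to 0.297 on 2 to 26 fragments and was highest at D8, with a D8 to D0 log2 ratio of 1.74 (0.76 to 3.07). OASL was at 0 in 3 libraries with 0.0552 at D2. OAS2, the reliably expressed member of this family, was thus higher in the middle than at either end.

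RSAD2 and CMPK2 lie head to head on chromosome 3, 5585 bases apart, and both are strongly induced by interferon elsewhere. RSAD2 encodes viperin, which makes a chain-terminating nucleotide from the product of CMPK2, a mitochondrial nucleotide kinase. RSAD2 had FPKM of 0.0322 (D0), 0.145 (D2), 0.503 (D4) and 1.74 (D8), on 7, 23, 108 and 271 fragments. Its log2 ratio to D0 was 1.88 (0.90 to 3.64), 3.61 (2.88 to 5.32) and 5.37 (4.69 to 7.08), starting from a few fragments in a gene that was not reliably expressed. These ratios depend on the pseudocount, the constant added to FPKM, which the intervals leave out. At D8 against D0 a pseudocount of 0.1 gave 3.80 for RSAD2 and 4.40 for IFIT1. RSAD2 was also 3.31-fold higher at D4 than at D2 and 3.40-fold higher at D8 than at D4. CMPK2 had 0.492, 0.582, 1.60 and 1.86, with log2 ratios to D0 of 1.68 (1.40 to 2.02) at D4 and 1.90 (1.61 to 2.24) at D8, and of D4 to D2 of 1.45 (1.14 to 1.79). At D2 RSAD2 was 3.67-fold D0 and CMPK2 1.18-fold D0 (log2 interval -0.16 to 0.64), but with a pseudocount of 0.1 the RSAD2 log2 ratio was 0.89, under 2-fold, and that of CMPK2 0.21.

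BST2 encodes tetherin, which holds budding virions at the cell surface. Its FPKM was 5.27, 13.9, 18.9 and 25.4, and its log2 ratio to D0 was 1.40 (1.16 to 1.65), 1.84 (1.62 to 2.07) and 2.27 (2.05 to 2.50). EIF2AK2, encoding the kinase PKR that halts translation on double-stranded RNA, had 9.41, 18.2, 21.1 and 12.0, with a D4 to D0 log2 ratio of 1.17 (1.13 to 1.21). ADAR, the RNA-editing enzyme that keeps the cell's own double-stranded RNA from being sensed, had 2.82, 4.22, 6.08 and 3.89, with a D4 to D0 log2 ratio of 1.11 (1.01 to 1.20). Tetherin transcripts were thus highest at D8, and those of the double-stranded RNA binders PKR and ADAR at D4.

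ISG15, the ubiquitin-like modifier, was the second most abundant member per length and did not run in a straight line. Its FPKM was 29.7 (D0), 93.0 (D2), 77.1 (D4) and 154.7 (D8). The log2 ratio to D0 was 1.65 (1.56 to 1.74), 1.38 (1.29 to 1.47) and 2.38 (2.30 to 2.47), and D4 was lower than D2 by more than counting error (log2 ratio -0.27, -0.34 to -0.20). Between D4 and D8 it was 2.01-fold higher. USP18, which removes ISG15 from proteins and damps signalling at IFNAR2, had 17.6, 30.6, 37.7 and 45.0, with log2 ratios to D0 of 1.10 (1.03 to 1.17) at D4 and 1.35 (1.28 to 1.43) at D8. HERC5, the ligase that attaches ISG15, was under 2-fold in every comparison, with 2.46, 2.15, 3.32 and 3.91. The modifier and its protease were therefore more than 2-fold higher at D8 than at D0, and the ligase was 1.59-fold higher.

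Of the TRIM ubiquitin ligases, TRIM25, which activates RIG-I, had FPKM of 3.72 (D0), 6.28 (D2), 10.8 (D4) and 4.86 (D8). Its D4 to D0 ratio was 2.90-fold, and the log2 ratio of D8 to D4 was -1.15 (-1.24 to -1.07). TRIM25 was the reliably expressed member at least 2-fold lower at D8 than at D4, but not under the median-ratio scaling, where this log2 ratio was -0.94. TRIM21, the cytosolic antibody receptor, had 3.02, 3.91, 4.68 and 4.10.

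PARP9 and DTX3L, which form a complex that adds to interferon-stimulated expression, are divergent neighbours on chromosome 13 whose ends overlap by 395 bases. PARP9 had FPKM of 1.80, 1.39, 2.0 and 3.49. DTX3L had 0.894, 1.05, 1.22 and 1.91, with a D8 to D0 log2 ratio of 1.09 (0.90 to 1.30). PARP14, a related ADP-ribosyltransferase in the same region, had 0.300, 0.489, 1.14 and 1.09, with a log2 ratio to D0 of 1.89 (1.64 to 2.21) at D4 and 1.82 (1.57 to 2.16) at D8, and of D4 to D2 of 1.20 (0.96 to 1.49). The partners of the complex were highest at D8, whereas PARP14 was at about the same level at D4 and D8 (log2 ratio -0.06, -0.27 to 0.14).

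IFI6, a small mitochondrial and endoplasmic reticulum protein that opposes apoptosis and viral replication, was the most abundant member per length in all 4 libraries. Its FPKM was 118.3 (D0), 250.5 (D2), 303.5 (D4) and 498.3 (D8), and its log2 ratio to D0 was 1.08 (1.04 to 1.13), 1.36 (1.32 to 1.40) and 2.07 (2.04 to 2.11). IFI6 alone had a higher FPKM at D8 than the other 35 members at D8 together. IFI44 had 10.1, 25.6, 30.3 and 33.5, with log2 ratios to D0 of 1.34 (1.23 to 1.46), 1.59 (1.48 to 1.69) and 1.73 (1.63 to 1.84).

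IFI44L lies 10372 bases from IFI44 on the same strand of chromosome 6 and had 6.63, 13.1, 18.3 and 14.2. Its D4 level was 2.76-fold and its D8 level 2.13-fold that of D0. These neighbours parted after D4, where IFI44 was higher at D8 (log2 ratio 0.15, 0.07 to 0.22) and IFI44L lower (-0.37, -0.44 to -0.31, and -0.16 under the median-ratio scaling). IFI35, which binds other interferon-induced proteins, had 15.4, 12.5, 10.6 and 16.6, lowest at D4.

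**Figure D4:**
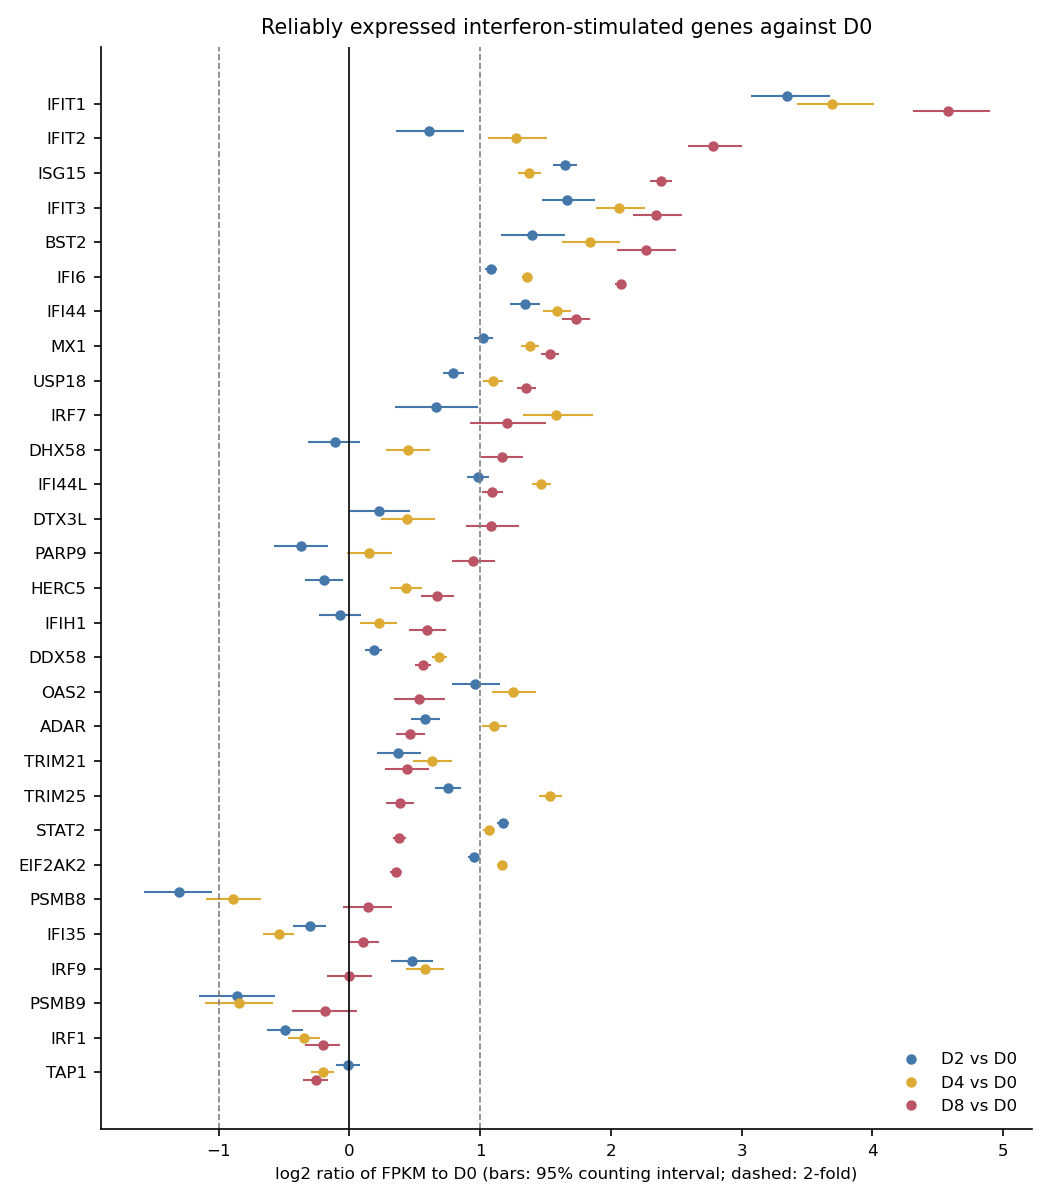
Log2 ratio of FPKM to D0 (horizontal axis) for the 29 reliably expressed interferon-stimulated genes (vertical axis, in order of the D8 ratio) at D2, D4 and D8, with 95% counting intervals as bars and dashed lines at 2-fold. IFIT1 stands apart at 3.35, 3.69 and 4.58, while the antigen processing genes PSMB8, PSMB9 and TAP1 and the factor IRF1 lie near or under 0.

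Among the antigen processing genes, the D2 library was below the D0 library for PSMB8 and PSMB9, and TAP1 was nearly level. PSMB8, the inducible subunit that replaces PSMB5 in the immunoproteasome, had FPKM of 5.92 (D0), 2.39 (D2), 3.20 (D4) and 6.52 (D8). Its log2 ratio of D2 to D0 was -1.31 (-1.58 to -1.05) and of D8 to D4 1.03 (0.81 to 1.25), so that D8 and D0 did not differ beyond counting error (0.14, -0.05 to 0.33). PSMB8 was the reliably expressed member at least 2-fold lower at D2. PSMB9, which replaces PSMB6, had 4.21, 2.32, 2.34 and 3.69, and TAP1, a subunit of the peptide transporter, had 10.5, 10.4, 9.15 and 8.81.

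The constitutive partners were lower at D2 as well, with log2 ratios of D2 to D0 of -0.27 for PSMB5, -0.48 for PSMB6 and -0.59 for PSMB7. Both inducible subunits were a small fraction of their constitutive partners per length. PSMB8 stood at 4.50%, 2.18%, 3.55% and 5.49% of PSMB5, and PSMB9 at 2.18%, 1.67%, 2.08% and 2.40% of PSMB6. PSMB10, an inducible subunit that is not on the list, stood at 8.33%, 10.8%, 17.1% and 9.71% of PSMB7, highest at D4. PSMB8, TAP1 and PSMB9 lie side by side on chromosome 7, from chr7:25058456-25061666 to chr7:25072133-25077508, with 143 bases between the divergent TAP1 and PSMB9. TAP1 did not share the low D2 value of the genes on either side of it (log2 ratio of D2 to D0 -0.01, -0.11 to 0.08).

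CXCL10, an interferon-induced chemokine that draws T cells, stayed under 1 in every library, with 0.175, 0.657, 0.237 and 0.912 on 15, 41, 20 and 56 fragments. With so few fragments its D8 to D0 log2 ratio of 2.31 has an interval from 1.54 to 3.31.

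Upstream of these genes, the ligand transcripts that had a row were low, and most ligand genes had no row. A gene without a row gives no measure of its transcript. Of 14 interferon ligand genes looked for, IFNB1 and IFNE had a row, with IFNB1 at 0.192 in the D4 library and at 0 in the others and IFNE at or under 0.0699. The receptor subunits were present at every stage. IFNAR1 had FPKM of 18.5, 13.9, 18.5 and 9.76, and IFNAR2 had 8.04, 12.6, 13.7 and 5.43. Both type I receptor subunits were lowest at D8, as were 37.5% of all reliably expressed mRNAs. The IFNAR2 log2 ratio of D8 to D4 was -1.34. Of the interferon-gamma receptor, IFNGR1 had 6.85, 6.0, 5.14 and 8.33 and IFNGR2 had 30.2, 28.7, 30.2 and 28.3. IL10RB, the subunit shared with type III interferon, had 2.51, 2.04, 3.09 and 1.32, and its partner IFNLR1 was at or under 0.0280.

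Among the kinases that serve these receptors, JAK1 had FPKM of 26.8, 46.2, 54.9 and 28.7 and TYK2 had 8.42, 6.53, 8.57 and 5.73. JAK2, which serves the interferon-gamma receptor, had 6.03, 2.61, 2.38 and 3.89, with a log2 ratio of D2 to D0 of -1.21. JAK2, PSMB8 and PSMB9 were lower at D2 and D4 than at D0, but this was not a shared course of interferon-gamma genes. Of the 16 reliably expressed interferon-gamma and antigen presentation rows described below, 10 were higher than D0 at D2 and 12 at D4. The constitutive PSMB5, PSMB6 and PSMB7 were also lower at D4 than at D0 (log2 ratios -0.55, -0.78 and -0.51). SOCS3, a feedback inhibitor of JAK signalling, had 7.09, 21.1, 11.7 and 1.81. STAT3 and STAT5A, which carry other cytokine signals, had 34.6, 57.0, 69.3 and 29.4, and 4.70, 7.37, 10.1 and 6.33. Of 13 genes on this signalling list 11 were reliably expressed. Their median log2 ratio to D0 was 0.31 at D2, 0.03 at D4 and -0.22 at D8, beside -0.03, 0.06 and -0.18 for all mRNAs.

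**Figure D5:**
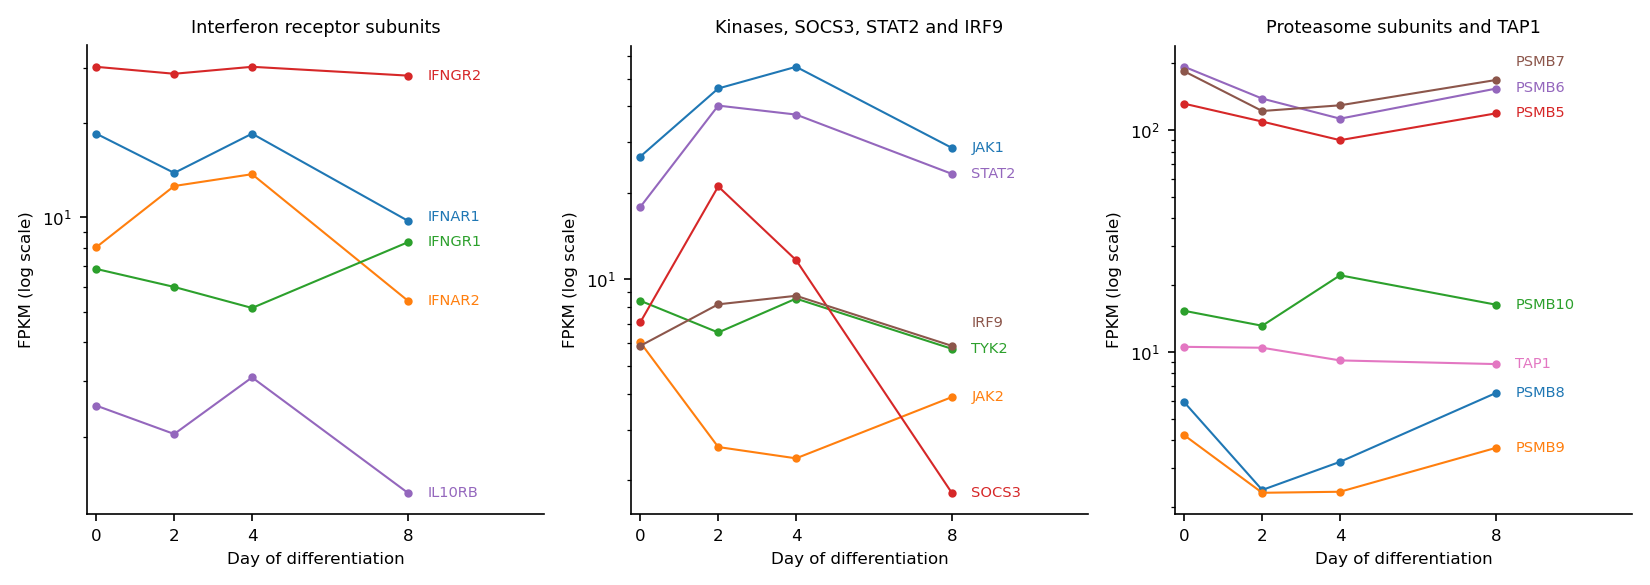
FPKM on a log scale (vertical axes) by day of differentiation (horizontal axes, 1 library per day) for interferon receptor subunits, for kinases with SOCS3, STAT2 and IRF9, and for proteasome subunits with TAP1. IFNAR1 and IFNAR2 are lowest at D8 (9.76 and 5.43), SOCS3 peaks at D2 (21.1), and PSMB8 and PSMB9 lie far under their constitutive partners.

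Genes that sense nucleic acids upstream of interferon were read as a group. Of 21 looked for, 11 were reliably expressed, with a median log2 ratio to D0 of 0.02 at D2, 0.46 at D4 and -0.12 at D8, beside -0.03, 0.06 and -0.18 for all mRNAs. ZBP1, a sensor of Z-form nucleic acid that is itself interferon-induced, had 3.74, 4.26, 5.94 and 7.79, with a D8 to D0 log2 ratio of 1.06. Below the level set for naming, and chosen after their values were seen, TLR3, an endosomal double-stranded RNA sensor, had 3.61, 1.92, 0.603 and 2.03, and TREX1, a nuclease that clears cytosolic DNA, had 0.548, 1.11, 1.93 and 1.78.

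A second list of 40 other interferon-stimulated genes was read in the same way. Of its 22 reliably expressed genes, 1 was at least 2-fold higher (4.55%) and 2 lower (9.09%) at D2 against D0, near the 6.67% and 10.1% of all mRNAs. At D4 6 were higher (27.3%, against 10.4%) and 1 lower (4.55%, against 8.81%), and at D8 4 were higher (18.2%, against 3.60%) and 0 lower (against 3.68%). The median log2 ratios to D0 were 0.21, 0.43 and 0.23, between those of the members and those of all mRNAs at each stage. ISG12(A), a small membrane protein gene related to IFI6, had FPKM of 190.7, 380.3, 422.5 and 566.0, higher at each step as IFI6 was. LGALS3BP, a secreted galectin-binding protein, had 2.14, 9.42, 11 and 6.34, a D4 to D0 ratio of 5.11-fold. EPSTI1 had 1.69, 2.80, 4.72 and 5.34, and RTP4 had 2.45, 3.10, 5.65 and 6.50, both highest at D8. TRIM26 had 4.13, 7.71, 10.4 and 6.52 and TOR1B had 7.16, 9.01, 10.3 and 4.81, both highest at D4 as TRIM25 was. Other genes of this list ran the other way after D0, among them, chosen after their values were seen, IFITM1 with 2.48 (D0), 0.979 (D2) and 2.46 (D8), TDRD7 with 4.65, 2.01, 2.28 and 3.47 from D0 to D8, and IFITM3, which restricts viral entry, with 522.8, 431.1, 329.2 and 590.1.

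The agents in the medium changed along with the stage. Of 6 reliably expressed genes that answer glucocorticoids, 4 were at least 2-fold higher at D2 than at D0 (66.7%, against 6.67% of all mRNAs). The median log2 ratio of the 6 to D0 was 3.02 at D2, 2.98 at D4 and 2.34 at D8. DUSP1 was lower than D0 at each of these stages (log2 ratios -0.13, -0.84 and -0.81). NFKBIA was 1.76-fold D0 at D2, 2.96-fold at D4 and 0.90-fold at D8. FKBP5, a classic glucocorticoid target, had FPKM of 4.88, 61.2, 77.4 and 38.6. Whether the hormones, the maturing of the cells or the time in culture go with the interferon-stimulated genes cannot be told apart with 1 library per stage.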

How the data were processed

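Total RNA was depleted of ribosomal RNA and sequenced from strand-specific libraries. Per the study's methods, the authors trimmed reads, aligned them to Sscrofa11.1 with HISAT2 2.0.5 and deposited FPKM for genes, and used BWA-MEM to find circRNAs, deposited as SRPBM (junction reads scaled by mapped reads) in the same column. The counting tool and its treatment of strand and of reads that match several genes of a family (IFIT, OAS, MX) are not given in the sources used here.

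From the deposited FPKM, library totals were recovered from rows of 1 fragment and gene lengths as the smallest whole length giving whole fragments (tolerance 0.02). Ratios are log2((FPKM + 0.01)/(FPKM + 0.01)), which understates differences of low genes. Intervals of ratios are conditional exact binomial at 95%, from fragments without the 0.01, so for low genes they are not centred on the printed ratio. Those of the set's share of fragments are Wilson binomial. All 36 rows matched RefSeq by symbol, start and end. Every member with FPKM of at least 1 in any library is given with its values, and a ratio is given for each such member past 2-fold. Members and lists were chosen with earlier results of these data known. Alternatives were pseudocounts of 0.1 and 1, other filters and 2 scalings. Python 3.11.15 with pandas 2.3.3, numpy 2.4.6, scipy 1.17.1 and matplotlib 3.10.9 was used, and scripts were tested on simulated data. One companion gene is not reported here.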

Additional observations from a re-analysis of the deposited data

How the results depend on the processing

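With 1 library per stage, no library could be left out and no paired analysis was possible because no stage has a replicate. Counting error is small for most members, and stage differences carry the unknown spread between cultures. Among the 33 members with FPKM of at least 1 in any library, 56 ratios were past 2-fold. Of these, 55, 33, 55 and 54 stayed past 2-fold under pseudocount 0.1, pseudocount 1, median-ratio scaling and protein-coding sum scaling. Their direction could not turn. A pseudocount never changes the sign of a ratio, and the scalings shifted log2 ratios by at most 0.21.

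A pseudocount of 1 gave median log2 ratios of 0.42 in D2 vs D0, 0.86 in D4 vs D0 and 0.51 in D8 vs D0, and 1 member 2-fold higher in D8 vs D4. With FPKM of at least 1 in any library, the median was 1.09 in D8 vs D0 and 4 members were 2-fold higher in D4 vs D2. With no filter, the median in D8 vs D0 was also 1.09, 2-fold higher were 4 in D4 vs D2 and 6 in D8 vs D4, and 2-fold lower were 2 in D2 vs D0, 2 in D4 vs D2 and 1 in D4 vs D0. Shares of all mRNAs past 2-fold under these alternatives, or under the scalings below, are not given here.

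Median-ratio scaling shifted log2 ratios by 0.21 in D8 vs D4 and 0.16 in D8 vs D0. It gave medians of 0.45 in D8 vs D4 and 0.82 in D8 vs D0, 5 members 2-fold higher and 0 lower in D8 vs D4, and summed FPKM of 300.1 at D0, 644.8 at D4 and 1053 at D8. Protein-coding sum scaling shifted D2 vs D0 by 0.11 and gave 1 member 2-fold higher in D8 vs D4 and summed FPKM of 301.5 at D0, 634 at D2 and 943.3 at D8. For the members highest at D8, added after the data were seen, the count was 18 and 16 under these scalings, against 19.1% and 7.74% of all mRNAs. Those highest at D0 were 2 under both, IRF1 and PSMB9.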

Other observations

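Circular RNAs form when an exon end is joined back to an earlier exon start. They were listed on the same strand within 5 of the 36 members, 5 of 8623 circRNAs in all. The share of all genes that hold a circRNA is not given here, so this count is not a result about the members. The one within USP18 (chr5:70205042-70206412) had 16 junction reads at D2 and 3 at D4, and 0 at D0 and D8, although linear USP18 was highest at D8. The circRNA within ADAR (chr4:95188533-95189535) had 10 junction reads at D4 and none in the other libraries, and D4 was also the library in which linear ADAR was highest. The circRNA within EIF2AK2 had 6 reads, at D4 only, that within STAT2 had 4, at D8 only, and that within DDX58 had 4 at D2 and 2 at D4. All of these are counts of a few reads, and listing of a circRNA needs at least 2 junction reads.

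Most reliably expressed interferon-gamma and antigen presentation genes were higher at D8 than at D0, by less than 2-fold, and their courses in between differed. The genes named next differed at least 2-fold in at least 1 comparison. GBP1, a guanylate-binding protein strongly induced by interferon-gamma, had FPKM of 6.57, 1.52, 2.37 and 9.01, and its D2 to D0 log2 ratio was -2.10 (-2.31 to -1.92). SLA-7, a pig class Ib gene, had 6.0, 2.24, 2.85 and 4.92, and WARS, a tryptophanyl-tRNA synthetase gene, had 85.0, 48.4, 33.6 and 76.1. PSME1, a proteasome activator subunit, ran the other way with 28.5, 54.6, 88.3 and 36.9. The list of 27 genes had 16 reliably expressed rows of 15 genes, since B2M has 2 rows. Of these 16 rows 10 were higher at D2 than at D0 (48% of all mRNAs were), 12 at D4 (53.8%) and 12 at D8 (31.5%). At D2, 0 were at least 2-fold higher (against 6.67% of all mRNAs) and 2 were lower (12.5%, against 10.1%). At D4, 1 was higher (6.25%, against 10.4%) and 3 were lower (18.8%, against 8.81%). At D8, 0 were higher (against 3.60%) and 0 lower (against 3.68%). The median log2 ratios to D0 were 0.16, 0.23 and 0.23, beside -0.03, 0.06 and -0.18 for all mRNAs.

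The row LOC100151816, for which RefSeq gives IFIT5 as a synonym, lies next to IFIT1 at chr14:101254818-101266105 and was not counted as a member. Its FPKM was 31.4, 30.4, 34.3 and 36.9, higher per length than IFIT1, IFIT2 and IFIT3 in all 4 libraries. Its D8 to D0 log2 ratio was 0.23 (0.16 to 0.30), far under those of its neighbours.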
